A study of Mus musculus with 17 samples.

Results

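The metabotropic glutamate receptors are the G protein-coupled receptors for glutamate, and 6 of their genes were examined here in adult mouse frontal cortex: Grm2, Grm3, Grm4, Grm5, Grm7 and Grm8. They were chosen by gene symbol among the 48440 genes of the deposited table, each symbol matching 1 row. The other genes of the family are not analysed here. All 6 passed the filter on low values, a TPM (a transcript level corrected for length and for the library total) of at least 1 in at least 8 libraries, as did 14144 genes in all.

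Frontal cortex was taken on postnatal day 189 from 17 male C57BL/6J mice whose mothers had been treated during pregnancy. The exposed group held 9 offspring of dams injected intraperitoneally at G12.5 (gestational day) with Poly(I:C), a synthetic double-stranded RNA that mimics viral infection, at 20 mg/kg in 0.9% saline. The control group held 8 offspring of dams that received 0.9% saline. Libraries are named by treatment of the dam and replicate number. The labels give 11 dams without tying offspring to litters, so p-values treat littermates as independent animals and the group difference may include differences between litters. The offspring themselves received no agent in the labels, and the model rests on a single exposure of the mother.

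Metabotropic receptors change neuronal excitability and transmitter release through G proteins and do not form a channel. Group I receptors, here Grm5, couple to Gq, sit mainly beside the postsynaptic density and are held there by Homer scaffolds. Group II (Grm2 and Grm3) and group III (Grm4, Grm7 and Grm8) couple to Gi/o, lower cyclic AMP and act largely as brakes on transmitter release from presynaptic terminals, while Grm3 is also made by astrocytes.

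Markers of cortical excitatory neurons were present in all 17 libraries, with the vesicular glutamate transporter gene Slc17a7 at 720.2 to 842 TPM and the deep-layer factor gene Tbr1 at 67.8 to 88.6 TPM. The labels' protocols state 25000000 reads, without giving them by library, and TPM, scaled to 1 common total, does not hold each library's own depth. In 2 libraries markers of neighbouring tissue stood apart, and results that rest on them are also given without both. Poly(I:C) replicate 7 had the highest summed level of the 11 striatal markers (369 TPM, against 206 to 290 TPM in the other 16 libraries) and of the 7 oligodendrocyte markers (3114 TPM, against at most 2144 TPM). The striatal sum of 290 TPM was that of Poly(I:C) replicate 4, while the saline libraries reached at most 240 TPM. Saline replicate 7 had the highest sum of the 8 olfactory bulb markers (59.9 TPM, against at most 18.6 TPM).

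The receptor genes fell into 3 pairs by level. Grm5 had the highest mean, 38.4 ± 4.05 TPM (SD, n = 17), followed by Grm3 at 35.3 ± 2.11 TPM (SD, n = 17). Grm2 averaged 24.6 ± 2.30 TPM and Grm7 22.5 ± 2.42 TPM (SD, n = 17). Grm8 averaged 8.84 ± 1.090 TPM and Grm4 8.55 ± 0.898 TPM (SD, n = 17). Between the pairs the order held in every library: Grm3 exceeded Grm2 in 17 of 17 libraries, by 1.44-fold on average, and Grm7 exceeded Grm8 in 17 of 17, by 2.58-fold on average. Within the pairs the ranges overlapped. Grm5 was above Grm3 in 15 of 17 libraries, Grm2 above Grm7 in 13 of 17 and Grm8 above Grm4 in 10 of 17, so the order of these neighbours changed from library to library.

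As shares of the 6 receptor transcripts, group II made up 43.9% ± 1.74 in the exposed group (SD, n = 9) and 42.7% ± 1.29 in the control group (SD, n = 8). Group III made up 28.6% ± 1.63 and 29.2% ± 0.900, and Grm5 27.5% ± 1.42 and 28.1% ± 1.31, in the same order. The summed level of the 6 was 134 ± 6.88 TPM in the exposed group (SD, n = 9) and 143 ± 10.0 TPM in the control group (SD, n = 8). These shares are unaffected by a single scaling factor per library, and they are given as a description.

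**Figure D1:**
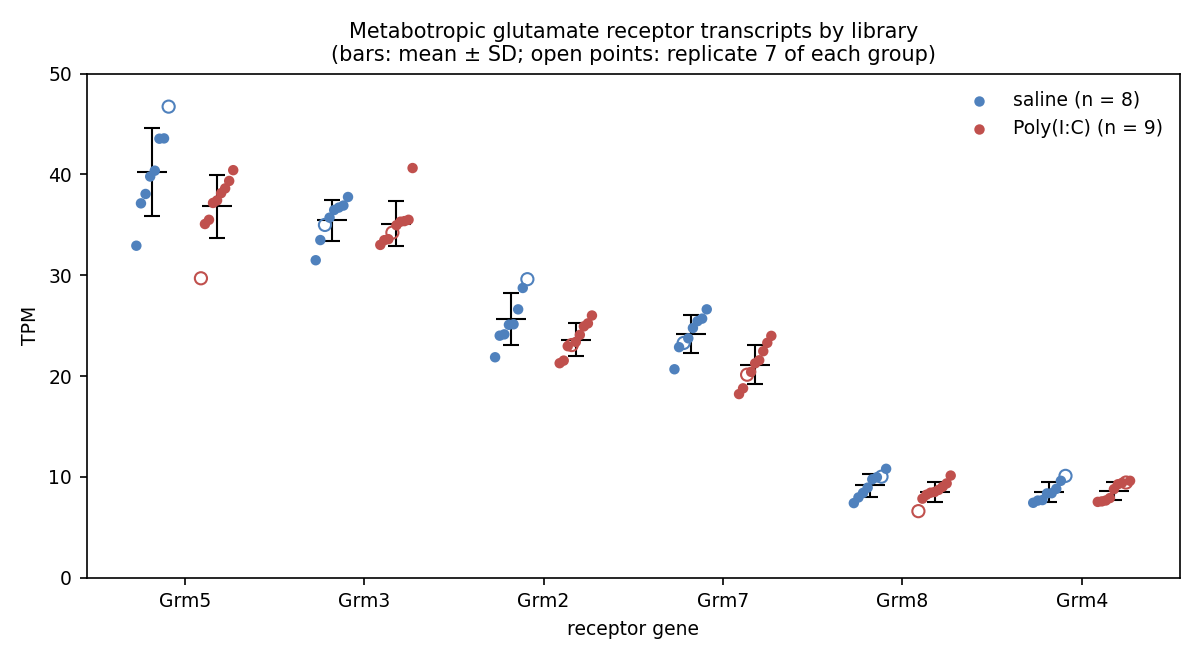
TPM (linear axis from 0) of the 6 receptor genes in each library, with saline in blue (n = 8) and Poly(I:C) in red (n = 9). Points are libraries, open points are replicate 7 of each group, and bars are mean ± SD. Grm5 and Grm3 lie highest, Grm8 and Grm4 lowest, and the groups overlap for every gene; the 9 Poly(I:C) libraries of Grm7 all lie below the saline median of 24.3 TPM.

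The receptor genes were then compared between mice of the 2 kinds of dam, to ask whether prenatal immune activation went with a different level of these receptors in the adult cortex. None of the 6 passed an adjusted p of 0.05 by limma with Benjamini-Hochberg adjustment over all 14144 genes tested, where 0% of genes passed. At an unadjusted p under 0.05, 1 of the 6 was called (Grm7), where 8.75% of all genes tested were, and it was lower in the exposed group, as 7.85% of all genes tested were at that p. In the deposited values the exposed mean was lower for 5 of the 6, where 71% of all genes tested were lower, and for 4 of the 6 after median-of-ratios scaling, where 50.9% were. The median log2 difference of the 6 was -0.10 as deposited and -0.066 after that scaling, against -0.035 and -0.0014 over all genes tested. The TPM ranges of the groups overlapped for all 6, and 0.0283% of all genes tested had ranges that did not overlap. In bulk tissue fewer cells of a type and less RNA per cell cannot be told apart.

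Grm7 encodes a presynaptic receptor of the active zone with low affinity for glutamate, and of the 6 it had the smallest p. Its level ran from 18.2 to 24.0 TPM with a median of 21.3 TPM in the exposed group, and from 20.7 to 26.6 TPM with a median of 24.3 TPM in the control group. All 9 Poly(I:C) libraries were below the saline median and 4 were below the lowest saline library, while the ranges overlapped. The group means were 21.1 ± 1.95 TPM (SD, n = 9) and 24.1 ± 1.90 TPM (SD, n = 8), a difference of -12.5%. On the log2(TPM + 1) scale, which understates the change of low genes, the difference was -0.19 ± 0.057 (SE) with a 95% interval of -0.30 to -0.067. The unadjusted limma p was 0.00397 and the adjusted p 0.486. Median-of-ratios scaling gave a difference of -0.15, and leaving out replicate 7 of both groups gave -0.18. The difference ran from -0.22 to -0.16 when each library was left out in turn. Its unadjusted limma p stayed under 0.05 in all 31 alternatives, which reuse the same libraries, and its adjusted p ran from 0.282 to 0.882 over them. The share of all genes tested at that unadjusted p ran from 5.52% with the olfactory bulb covariate to 12.1% without saline replicate 6.

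Grm7 (ENSMUSG00000056755.13) is protein-coding and spans 922 kb of chromosome 6 from 110645581 to 111567230 on the plus strand of GRCm38, the assembly that mm10 names. The antisense gene Gm20387 overlaps its start on the opposite strand and shares 130 exon bases with it. Gm20387 averaged 2.92 ± 0.467 TPM in the exposed group (SD, n = 9) and 2.95 ± 0.562 TPM in the control group (SD, n = 8). The strand setting of the counting is not given in the sources used here, so how reads in the shared bases were assigned cannot be told.

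Upstream windows from RefSeq were found for 4 of the 6 genes (Grm2, Grm3, Grm7 and Grm8). The 250 bases before the most upstream RefSeq start are shown for Grm7 and Grm3, the matched genes with the largest and the smallest group difference, with GC boxes in capitals (GGGCGG, or CCGCCC on the other strand). The Grm7 window is chr6:110645262-110645511 on the plus strand and the Grm3 window is chr5:9725353-9725602 on the minus strand, both on GRCm38.p6 and written 5′ to 3′ along the gene.
Grm7: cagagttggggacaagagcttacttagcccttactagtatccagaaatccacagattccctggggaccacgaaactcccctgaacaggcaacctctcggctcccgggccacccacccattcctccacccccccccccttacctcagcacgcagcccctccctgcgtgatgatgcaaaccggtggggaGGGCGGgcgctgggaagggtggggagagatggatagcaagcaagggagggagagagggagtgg
Grm3: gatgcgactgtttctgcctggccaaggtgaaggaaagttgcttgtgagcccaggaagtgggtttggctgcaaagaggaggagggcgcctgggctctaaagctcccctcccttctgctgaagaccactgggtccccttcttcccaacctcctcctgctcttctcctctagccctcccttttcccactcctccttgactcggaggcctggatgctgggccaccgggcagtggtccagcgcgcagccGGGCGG
Both windows held 1 GC box and 8 CpG dinucleotides, with 62.0% G and C for Grm7 and 62.4% for Grm3. The Grm2 window held 3 GC boxes and 16 CpG dinucleotides, and the Grm8 window 1 and 29. The median over all 32851 windows was 6 CpG dinucleotides, and 32.7% of windows held a GC box. No window of the 4 held TGACG (a core bound by cyclic AMP response factors, found with its complement CGTCA in 17.8% of all windows) or TATAAA (12.4% on either strand). These letters describe the windows and were not tied to binding or to the levels.

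Grm5, the group I receptor, ran from 29.7 to 40.4 TPM with a median of 37.4 TPM in the exposed group and from 32.9 to 46.7 TPM with a median of 40.1 TPM in the control group. Poly(I:C) replicate 7 was the lowest of all 17 libraries and saline replicate 7 the highest, and 8 of 9 Poly(I:C) libraries were below the saline median. The means were 36.8 ± 3.17 TPM (SD, n = 9) and 40.3 ± 4.34 TPM (SD, n = 8). The log2 difference was -0.12 ± 0.064 (SE; 95% interval -0.26 to 0.010), with an adjusted limma p of 0.587. Without replicate 7 of both groups it was -0.055, with an unadjusted limma p of 0.311. Striatal and olfactory markers moved with these 2 libraries, as given above. With the striatal markers as a covariate the difference was -0.093 (unadjusted limma p of 0.164), and with the olfactory bulb markers it was -0.095 (unadjusted limma p of 0.155). Grm5 (ENSMUSG00000049583.15) lies on chromosome 7 from 87584168 to 88134907.

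Grm2, an autoreceptor of glutamatergic terminals, ran from 21.3 to 26.0 TPM with a median of 23.4 TPM in the exposed group and from 21.9 to 29.6 TPM with a median of 25.1 TPM in the control group. Saline replicates 7 and 1 were the highest libraries, and 7 of 9 Poly(I:C) libraries were below the saline median. The means were 23.6 ± 1.61 TPM (SD, n = 9) and 25.7 ± 2.56 TPM (SD, n = 8). The log2 difference was -0.11 ± 0.055 (SE; 95% interval -0.23 to 0.0038), with an adjusted limma p of 0.576. Without replicate 7 of both groups it was -0.079 (unadjusted limma p of 0.174), and with the olfactory bulb markers as a covariate it was -0.074 (unadjusted limma p of 0.154). Grm2 (ENSMUSG00000023192.12) lies on chromosome 9 from 106643095 to 106656082 and is the shortest of the 6 genes at 13.0 kb.

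Grm3, the other group II receptor, showed close group means of 35.1 ± 2.26 TPM (SD, n = 9) in the exposed group and 35.4 ± 2.07 TPM (SD, n = 8) in the control group. Its range was 33.0 to 40.6 TPM with a median of 35.0 TPM in the exposed group and 31.5 to 37.8 TPM with a median of 36.1 TPM in the control group. Poly(I:C) replicate 4 was the highest library, while the other 8 Poly(I:C) libraries were below the saline median. The log2 difference was -0.013 ± 0.043 (SE), with a 95% interval of -0.10 to 0.076 and an adjusted limma p of 0.943. It turned to 0.023 after median-of-ratios scaling, and it ran from -0.039 without Poly(I:C) replicate 4 to -0.000070 without saline replicate 1. The 8 astrocyte markers, summed, had medians of 1784 TPM in the exposed group and 1769 TPM in the control group. Grm3 varied least of the 6, with a coefficient of variation of 5.98% over 17 libraries against 9.35% to 12.3% for the others. Grm3 (ENSMUSG00000003974.6) lies on chromosome 5 from 9485541 to 9725170.

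Grm8, a presynaptic group III receptor, ran from 6.61 to 10.1 TPM with a median of 8.51 TPM in the exposed group and from 7.41 to 10.8 TPM with a median of 9.36 TPM in the control group. The lowest library was again Poly(I:C) replicate 7. The means were 8.54 ± 0.987 TPM (SD, n = 9) and 9.16 ± 1.17 TPM (SD, n = 8), with a log2 difference of -0.090 ± 0.075 (SE; 95% interval -0.25 to 0.067) and an adjusted limma p of 0.727. The difference was -0.050 without Poly(I:C) replicate 7 and -0.032 without replicate 7 of both groups. Grm8 (ENSMUSG00000024211.15) lies on chromosome 6 from 27275119 to 28135178, on the strand opposite to Grm7.

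Grm4, a group III receptor best known from the terminals of cerebellar granule cells, had overlapping ranges. It ran from 7.53 to 9.62 TPM with a median of 8.79 TPM in the exposed group and from 7.44 to 10.1 TPM with a median of 8.38 TPM in the control group. The highest library was saline replicate 7, and 5 of 9 Poly(I:C) libraries were above the saline median. The means were 8.58 ± 0.897 TPM (SD, n = 9) and 8.52 ± 0.958 TPM (SD, n = 8). The log2 difference was 0.011 ± 0.067 (SE; 95% interval -0.13 to 0.15), with an adjusted limma p of 0.970, and its sign changed when single libraries were left out. Grm4 is ENSMUSG00000063239.16 in the deposited values and ENSMUSG00000063239.17 in GENCODE M21, which places it on chromosome 17 from 27422387 to 27521403.

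**Figure D2:**
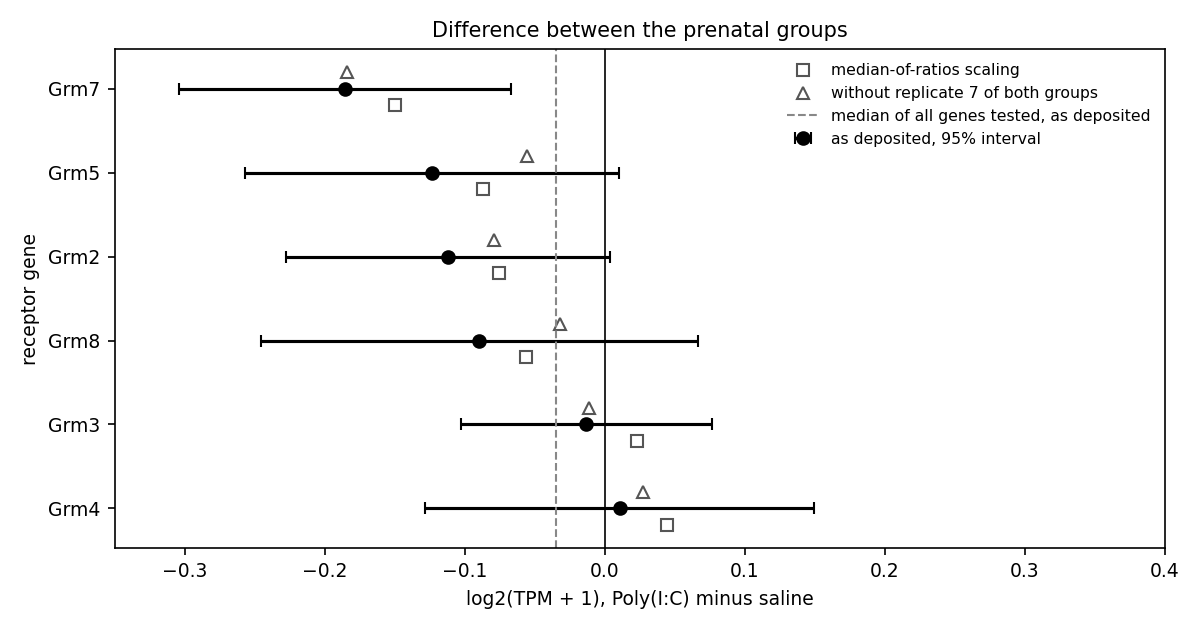
Difference of each receptor gene between the groups on the log2(TPM + 1) scale, Poly(I:C) minus saline. Filled points with bars are values as deposited with 95% intervals, squares are after median-of-ratios scaling, triangles leave out replicate 7 of both groups, and the dashed line is the median of all genes tested. The interval of Grm7 alone lies wholly below 0, without adjustment over genes; Grm5 and Grm8 move toward 0 without replicate 7.

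Covariation among the 6 receptors was examined over 15 pairs, of which 2 had a Pearson correlation of log2(TPM + 1) that passed after Benjamini-Hochberg adjustment over the 15. Grm5 and Grm8 had r = 0.80 (permutation p = 0.00012, adjusted 0.0018) and Spearman's rho = 0.81 (permutation p = 0.00016, adjusted 0.0024) over 17 libraries. Their r was 0.86 within the exposed group and 0.72 within the control group. It was 0.68 when replicate 7 of both groups was left out, which were also the 2 libraries farthest from the median of Grm5. After median-of-ratios scaling it was 0.75, and with the scaling and the omission together 0.55, with no p computed. Grm2 and Grm5 had r = 0.72 (permutation p = 0.00116, adjusted 0.0087) and rho = 0.72 (permutation p = 0.00171, adjusted 0.0128). Their r was 0.35 within the exposed group and 0.86 within the control group. Without replicate 7 of both groups their r was 0.71, and it was 0.54 without saline replicates 7 and 1, the libraries farthest from the median of Grm2. After median-of-ratios scaling it was 0.57 with an adjusted permutation p of 0.120, and it no longer passed. The remaining 13 pairs had r from 0.10 to 0.54. All points of a library share its TPM scaling and its dissection.

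**Figure D3:**
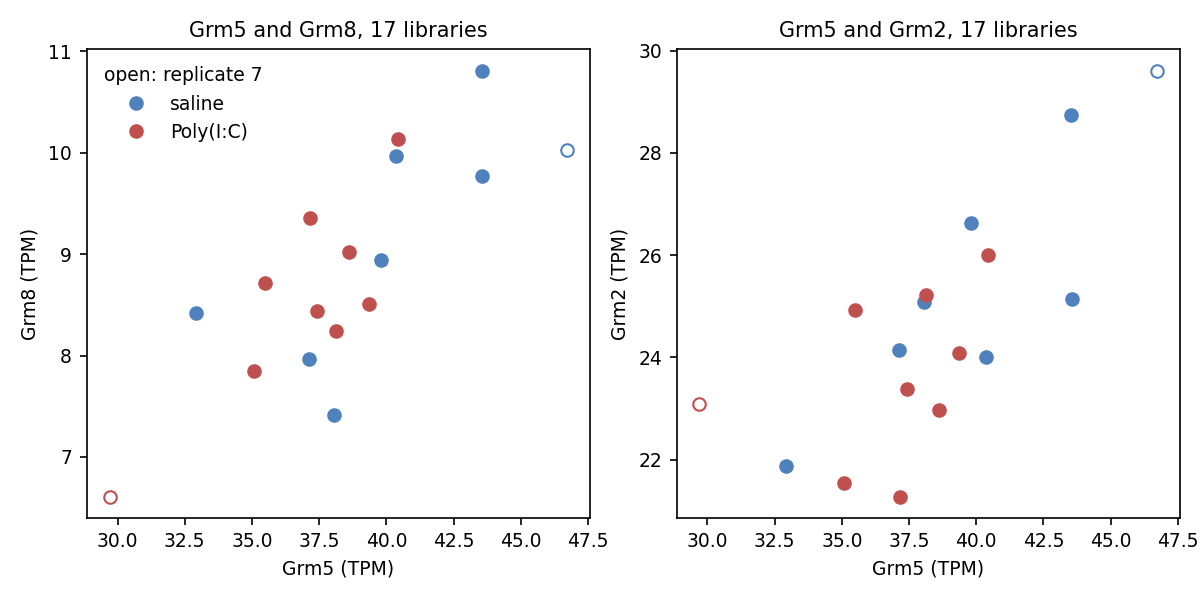
TPM of Grm8 (left) and Grm2 (right) against Grm5 in the 17 libraries, with saline in blue, Poly(I:C) in red and replicate 7 of each group open. Both panels slope upward (r = 0.80 and 0.72 on the log2 scale), with replicate 7 of each group at the ends of the Grm5 range.

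Grm5, Grm7 and Grm8 also moved with the mean log2 level of the 6 excitatory neuron markers when all 17 libraries were kept. This comparison was chosen after the values were seen, from 12 marker lists. The adjustment over 6 receptors does not cover that choice, so its p-values are given as a description. Over 17 libraries Grm8 had r = 0.76 with the markers (permutation p = 0.00037, adjusted 0.00222 over 6 receptors; rho = 0.75, permutation p = 0.0008, adjusted 0.0048). Grm5 had r = 0.70 (permutation p = 0.00111, adjusted 0.00333; rho = 0.64, permutation p = 0.00636, adjusted 0.0191) and Grm7 r = 0.61 (permutation p = 0.00977, adjusted 0.0195; rho = 0.62, permutation p = 0.00972, adjusted 0.0194). With saline replicate 6 and Poly(I:C) replicate 7 left out, the libraries farthest from the marker median, r was 0.70 for Grm8, 0.46 for Grm5 and 0.55 for Grm7. Within the exposed and control groups it was 0.85 and 0.67 for Grm8, 0.74 and 0.71 for Grm5, and 0.78 and 0.52 for Grm7. After median-of-ratios scaling it was 0.56, 0.33 and 0.33 for Grm8, Grm5 and Grm7, with no p computed. Grm2, Grm3 and Grm4 had r of 0.27, 0.41 and 0.44, with adjusted permutation p of 0.290, 0.121 and 0.116. Their r was 0.080, 0.22 and 0.64 without the 2 libraries farthest from the marker median, and -0.31, 0.17 and 0.073 after median-of-ratios scaling. Without replicate 7 of both groups r was 0.69, 0.67 and 0.58 for Grm8, Grm5 and Grm7. It was then 0.22, 0.41 and 0.71 for Grm2, Grm3 and Grm4, with no p computed. Which receptors followed the markers thus depended on the libraries kept, Grm4 being above Grm5 and Grm7 in both omissions. The summed level of the markers ran from 2641 to 2958 TPM in the exposed group and from 2668 to 2911 TPM in the control group, and its part in the receptor differences was not tested.

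The genes whose levels followed each receptor most closely were named by the highest Pearson r over 17 libraries after group means were taken off. They are a description, being the top 2 of 12806 named genes for each receptor. Grm5 was followed by Asxl1, a Polycomb-associated chromatin gene (r = 0.91), and Trpc5, a cation channel opened downstream of Gq (r = 0.90). Grm8 was followed by Galnt16, a glycosyltransferase gene (r = 0.91), and Cdk5r1, the p35 activator of the kinase Cdk5 (r = 0.90). Grm7 was followed by Kmt2c, a histone methyltransferase gene (r = 0.86), and the zinc finger gene Zfp800 (r = 0.85). Grm4 was followed by Sec62, of the endoplasmic reticulum translocon (r = 0.89), and Nap1l1, a histone chaperone gene (r = 0.89). Grm3 was followed by Elp2, an Elongator subunit gene (r = 0.84), and Thoc3, of the mRNA export complex THO (r = 0.80). Grm2 was followed by Gpat4, of glycerolipid synthesis (r = 0.83), and Fam206a (r = 0.83). After median-of-ratios scaling these values were lower for 11 of the 12 genes, the exception being Asxl1 at 0.92. Thoc3 was then lowest at 0.62, and Sec62 was at 0.66. Without that scaling, Spearman's rho of the 12 genes ran from 0.59 for Thoc3 to 0.94 for Cdk5r1. Without replicate 7 of both groups, 3 of the 12 ranked lower in likeness than the tenth: Trpc5 at rank 32 for Grm5 (r = 0.82), Gpat4 at rank 30 for Grm2 (r = 0.78) and Thoc3 at rank 32 for Grm3 (r = 0.80).

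Around the receptors, 6 lists of pathway genes were examined, and no member of any list passed an adjusted p of 0.05 by limma. Of the 10 scaffold and partner genes of group I receptors, 8 had a lower mean in exposed mice, and the list median was -0.047 on the log2 scale; after median-of-ratios scaling 6 were lower, with a median of -0.010. Every list count of lower genes stands beside 71% of all genes tested as deposited and 50.9% after that scaling. The PDZ scaffold gene Grasp (tamalin), which links group I receptors to trafficking proteins, averaged 35.8 ± 3.54 TPM (SD, n = 9) versus 39.6 ± 2.58 TPM (SD, n = 8), with an unadjusted limma p of 0.0159. Ncdn (norbin), which promotes surface expression of Grm5 protein, averaged 520 ± 22.1 TPM (SD, n = 9) versus 536 ± 18.2 TPM (SD, n = 8). On the log2 scale Grasp differed by -0.15 and Ncdn by -0.045, and by -0.11 and -0.0076 after median-of-ratios scaling. The synaptic scaffold gene Homer1 was at 73.9 and 70.4 TPM.

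Of 13 Gq effector genes 8 were lower, with a median of -0.022, and after median-of-ratios scaling 5 were lower and the median turned to 0.010. Dgkz, a diacylglycerol kinase gene, averaged 404 ± 23.5 TPM (SD, n = 9) versus 426 ± 21.5 TPM (SD, n = 8). None of the 13 had an unadjusted p under 0.05. Of 18 Gi/o effector genes 16 were lower, with a median of -0.037, and after median-of-ratios scaling 9 were lower, with a median of -0.00044. In the deposited values 2 of the 18 had an unadjusted limma p under 0.05, beside 8.75% of all genes tested. Both encode inhibitory G protein subunits, as do other genes of the list that did not reach that p. Gnai2 averaged 123 and 130 TPM in exposed and control mice, with an unadjusted limma p of 0.0120. Gnai3 averaged 8.23 and 9.01 TPM, with an unadjusted limma p of 0.0164. The log2 differences of Gnai2 and Gnai3 were -0.081 and -0.12 as deposited, and -0.044 and -0.082 after median-of-ratios scaling. Gnao1, the most abundant of the 18, averaged 740 and 744 TPM, a log2 difference of -0.0093 that turned to 0.028 after median-of-ratios scaling.

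Of 8 group III partner genes 6 were lower, with a median of -0.056, and 4 after median-of-ratios scaling, with a median of -0.019. The calmodulin genes, whose protein binds the tail of group III receptors, included Calm3 at 1471 and 1583 TPM and Calm2 at 2325 and 2462 TPM. The unadjusted limma p of Calm3 was 0.00272 and its adjusted p 0.486. Calm3 and Calm2 had log2 differences of -0.11 and -0.081 as deposited, and -0.069 and -0.044 after median-of-ratios scaling. Pick1, which clusters Grm7 protein at presynaptic sites, averaged 26.3 ± 2.57 TPM (SD, n = 9) versus 29.6 ± 3.84 TPM (SD, n = 8), with an unadjusted limma p of 0.0367. Its log2 difference was -0.16 as deposited and -0.12 after that scaling. Elfn1 and Elfn2, postsynaptic proteins that recruit group III receptors across the synapse, averaged 18.4 and 18.8 TPM, and 47.2 and 48.2 TPM, in exposed and control mice.

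For N-acetylaspartylglutamate, a peptide transmitter that activates Grm3, 4 of 5 genes of synthesis, transport and breakdown were tested and 3 were lower, with a median of -0.055, and also 3 after median-of-ratios scaling, with a median of -0.024. The synthase gene Rimkla averaged 3.77 ± 0.600 TPM (SD, n = 9) versus 4.57 ± 0.297 TPM (SD, n = 8), a log2 difference of -0.23 ± 0.068 (SE) with an unadjusted limma p of 0.00304 (adjusted, 0.486), and 8 of 9 Poly(I:C) libraries were below the saline median. The difference of Rimkla was -0.20 after median-of-ratios scaling. The Rimkla paralogue Rimklb averaged 13.5 and 14.1 TPM. Among 10 desensitisation genes the median was -0.013 with 7 lower in the deposited values, and after median-of-ratios scaling the median turned to 0.024 with 2 lower. The receptor kinase genes Grk3 (33.7 and 36.8 TPM) and Grk5 (5.02 and 5.46 TPM) led that list by p. Their log2 differences were -0.12 and -0.11 as deposited, and -0.084 and -0.075 after that scaling. Rgs4, which speeds the shutdown of G protein signals, averaged 263 and 266 TPM. Its log2 difference of -0.023 turned to 0.014 after median-of-ratios scaling.

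**Figure D4:**
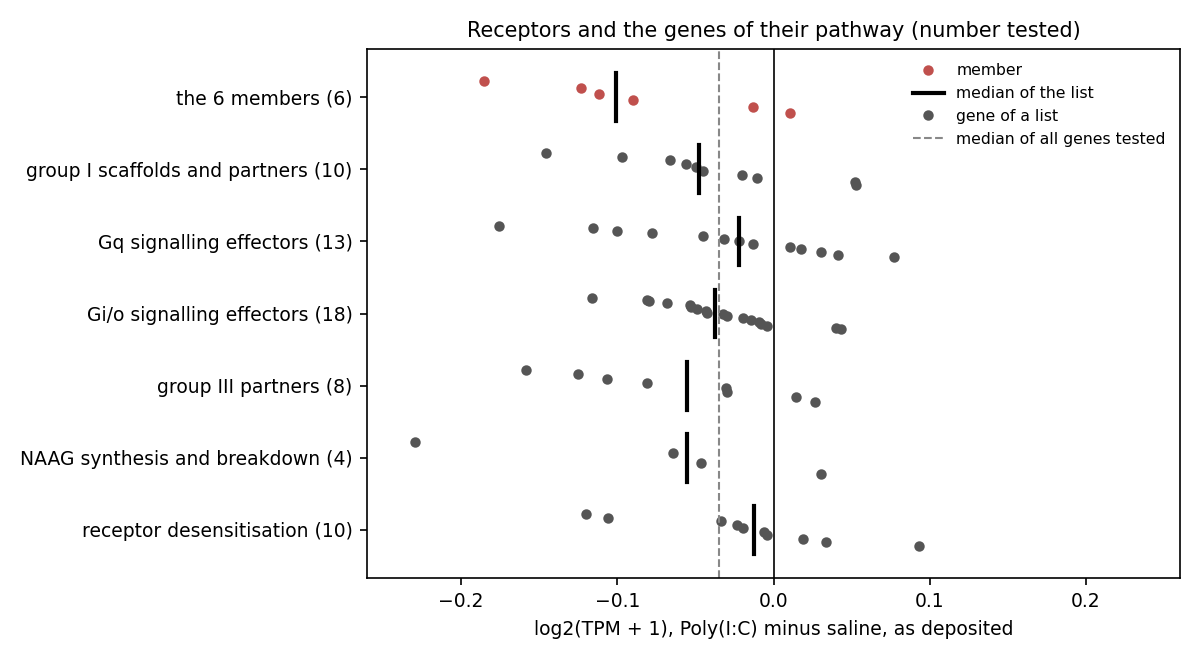
Log2(TPM + 1) difference, Poly(I:C) minus saline as deposited, of the 6 receptors (red) and of the genes of 6 pathway lists (grey), with the number tested beside each name. Thick bars are list medians and the dashed line is the median of all genes tested; the receptors have a median of -0.10 and the 6 lists medians between -0.056 and -0.013.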

How the data were processed

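Polyadenylated RNA of 17 frontal cortices was sequenced as strand-specific, single-end reads of 100 bp, per the labels' protocols. The authors deposited 1 table of TPM per gene, rounded to 2 decimals. The submitters' processing notes list RSEM 1.2.31, STAR 2.5.1b, Trim Galore 0.4.0 and the build mm10. The annotation release is not given in the sources used here. TPM is relative and keeps no depth, so no count test was made and other scalings were tried.

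Symbols were matched without the version suffix (48058 of 48440 identifiers), and coordinates came from GENCODE M21. The group difference was fitted on log2(TPM + 1) by limma 3.58.1 (trend, two-sided; R 4.3.3), which was tested on simulated data. Correlations used 100000 permutations. From each pathway list the text names 2 genes by smallest p and 1 by highest level; 1 gene that this rule names is not reported here, and Homer1, Elfn1 and Elfn2 were chosen after their values were seen. Python 3.11.15 was used for descriptions. Members, lists and alternatives were chosen with earlier results of these data known.

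Alternatives were pseudocounts of 0.1 and 0.5, other filters, 3 scalings, robust and weighted fits, a replicate block, marker covariates and leaving out libraries. Those for correlations were chosen after seeing the data.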

Additional observations from a re-analysis of the deposited data

Results flagged for a closer look

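Dixon's ratio picked out 5 values among 48 sets of libraries examined (the receptors, the named pathway genes and 4 marker means, each in 2 groups). Among sets taken without regard to their values, chance alone picks out about 1 in 20. The striatal and olfactory bulb means were already known to stand apart in a replicate 7 library, so the count cannot be read against that rate. Among the receptors, Grm5 in Poly(I:C) replicate 7 was far below the rest of its group, at 4.94 on the log2(TPM + 1) scale (29.7 TPM, next lowest 35.1 TPM). Grm3 in Poly(I:C) replicate 4 was far above its group, at 5.38 (40.6 TPM, next highest 35.5 TPM). Grk3 was low in Poly(I:C) replicate 1, at 4.88 (28.5 TPM, next lowest 32.4 TPM). The striatal marker mean was high in Poly(I:C) replicate 7, at 4.35 with the next library at 3.77, and the olfactory bulb marker mean in saline replicate 7, at 3.30 with the next library at 1.99.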

How the results depend on the processing

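The count of receptors past an adjusted p of 0.05 was 0 in all 31 alternatives. Over all genes tested the count was 2 after median-of-ratios scaling, 2 with the replicate block, and 0 to 1 when each library was left out; the 1 gene appeared without saline replicate 4. Replicate numbers do not pair the samples in the labels: deviations of same-numbered libraries correlated from -0.22 to 0.082 over 8 pairs, and 1 of 8 Poly(I:C) libraries matched its own number best. With the replicate block, which leaves out Poly(I:C) replicate 9, Grm7 differed by -0.20. Grm2, Grm5, Grm7 and Grm8 stayed below 0 in all 31 alternatives. Grm3 turned to 0.023 with median-of-ratios, 0.022 with upper-quartile and 0.022 with quantile scaling. Grm4 turned to -0.0085 with the replicate block and to -0.017 with the striatal covariate, and ran from -0.013 to 0.044 when each library was left out. Grm5 with Grm8 passed in 22 of 23 alternatives, the exception being quantile normalization (adjusted permutation p of 0.0511), and Grm2 with Grm5 in 19 of 23, losing the call under all 3 scalings and without saline replicate 7. TPM does not hold each library's own depth, so the counting error of a single TPM value was not computed.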
